A study of Mus musculus with 6 samples.

Results

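The genes described here are 8 that move glutamate into cells or recycle it, chosen by name from the 32285 features of the count matrices: Slc1a1, Slc1a2, Slc1a3, Slc1a7, Glul, Glud1, Slc38a3 and Slc38a1. They were followed in nuclei of rd10 mouse retina, a strain that carries the rd10 mutation of Pde6b, a rod phosphodiesterase gene, and loses rods and then cones. The strain was B6.CXB1-Pde6b-rd10/J in every library, so no library came from a retina without the mutation. Retinas were taken at postnatal day 20, after an intravitreal injection at postnatal day 18 of saline (Saline replicates 1, 2 and 6) or of 20 ng recombinant IL-27, an immune cytokine (IL-27 replicates 4, 5 and 10). No uninjected retina was part of the comparison, and the labels do not say which libraries came from which animals, so p-values measure the spread between these 6 libraries only.

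Neurons that signal with glutamate, which in the retina include photoreceptors and bipolar cells (BC), need it cleared from the space around their synapses. Sodium-driven carriers of the Slc1 family do this, and Muller glia, the radial glia that span the retina, take up much of it. Inside the glial cell, glutamine synthetase turns glutamate into glutamine, which leaves through Slc38 carriers and can be taken up by neurons and turned back into glutamate. Glutamate dehydrogenase instead feeds the carbon of glutamate into the citric acid cycle in mitochondria.

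Slc1a3 encodes the glial carrier EAAT1 (GLAST), Slc1a2 the carrier EAAT2 (GLT-1), Slc1a1 the neuronal carrier EAAT3, and Slc1a7 the carrier EAAT5, which also conducts chloride. Glul encodes glutamine synthetase and Glud1 glutamate dehydrogenase. Slc38a3 (SNAT3) and Slc38a1 (SNAT1) carry glutamine. In the GENCODE M21 annotation of GRCm38, Slc1a3 spans chr15:8634124-8710764 on the minus strand, Slc1a2 chr2:102658659-102790784 on the plus strand, Slc1a1 chr19:28835049-28913960 on the plus strand, and Slc1a7 chr4:107968332-108013532 on the plus strand. Glul lies at chr1:153899944-153909723 (plus), Glud1 at chr14:34310727-34345265 (plus), Slc38a3 at chr9:107650634-107669530 (minus) and Slc38a1 at chr15:96571418-96642913 (minus).

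The promoters of Slc1a3 and Slc1a7 are shown because these 2 carriers had opposite distributions across the retina, the first highest in glia and the second in photoreceptors and bipolar cells (below). Each runs from 250 bases before to 50 bases after the gene start in the RefSeq table for GRCm38.p6, which held 6 of the 8 genes. The first is chr15:8710758-8711057 on the minus strand and the second chr4:107968156-107968455 on the plus strand, and capitals mark the letters TAATCC or TAATCT on either strand.
Slc1a3: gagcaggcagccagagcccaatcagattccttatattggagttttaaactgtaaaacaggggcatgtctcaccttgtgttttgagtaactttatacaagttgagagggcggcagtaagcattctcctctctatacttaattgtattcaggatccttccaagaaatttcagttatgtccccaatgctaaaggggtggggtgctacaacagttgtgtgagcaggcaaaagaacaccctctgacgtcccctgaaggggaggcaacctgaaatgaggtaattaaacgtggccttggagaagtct
Slc1a7: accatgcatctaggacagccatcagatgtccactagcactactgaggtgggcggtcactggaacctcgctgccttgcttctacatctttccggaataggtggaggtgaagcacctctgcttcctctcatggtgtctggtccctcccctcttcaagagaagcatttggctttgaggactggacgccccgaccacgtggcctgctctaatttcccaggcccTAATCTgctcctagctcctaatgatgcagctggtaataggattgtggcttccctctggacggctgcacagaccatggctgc
TAATCC and TAATCT are letters that homeodomain factors of photoreceptors and bipolar cells, such as Crx and Otx2, can bind. TAATCT stood in the Slc1a7 window and in 8.19% of 32851 promoters. TAATCC stood in none of the 6 windows and in 7.06% of all promoters. A match describes these letters only and says nothing about binding.

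The libraries held 8968 to 9965 barcodes and 36678332 to 48260748 UMIs (unique molecular identifiers, counted transcripts). Pairs of libraries shared 18 to 30 barcodes, at most 0.335% of the smaller library. After filtering, 8238 to 9161 nuclei per library were kept, with a median of 2782 to 3787 UMIs per nucleus. They fell into 14 types named from marker lists that hold none of the 8 genes: 15528 rods, 3337 cones, 3166 rod BC, 3694 ON cone BC, 2491 OFF BC, 1083 other BC led by Grik1 and Lama2, 494 horizontal cells (HC), 12396 amacrine cells (AC), 2195 retinal ganglion cells (RGC), 295 astrocytes, 134 pericytes, 244 endothelial cells, 1562 microglia and 5423 Muller glia (10.4%). Nuclei of 1 library are not independent, so UMIs were summed per library and type and given as CPM, each gene's UMIs relative to all UMIs in that sum, put on a common scale, with SD over the 6 libraries. CPM values do not correct for gene length, so levels are compared for 1 gene across types, not between genes. Types are clusters of the same data, so their levels are a description without a test. In summed nuclei, a lower level in each nucleus and a smaller share of nuclei with the transcript cannot be told apart. Free RNA released from other cells also gives UMIs in nuclei that do not make a transcript.

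Slc1a3, the glial carrier, was highest in the 2 kinds of macroglia. It stood at 2343 ± 378 CPM (SD over the 3 saline and 3 IL-27 libraries, n = 6) in astrocytes and 1141 ± 114 CPM in Muller glia, and the lowest astrocyte library (1870 CPM) lay above the highest Muller library (1303 CPM). Every other type averaged less, from pericytes at 79.7 CPM, AC at 63.9 CPM and rods at 60.8 CPM down to HC at 10.8 CPM and RGC at 9.53 CPM. Muller nuclei outnumbered astrocytes and held most of the Slc1a3 UMIs counted here. Muller glia without the saline-enriched cluster described further on made up 9.12% of nuclei and held 69.2% of all Slc1a3 UMIs. Shares of UMIs, here and below, depend on the mix of nuclei kept. That mix was not compared with the mix of cells in the retina, so they are not shares of the tissue. Thinned to 1000 UMIs per nucleus, 60.5% of Muller nuclei and 80.5% of astrocytes carried a Slc1a3 UMI, against 0.418% of HC, 2.86% of endothelial cells and 5.70% of microglia, types in which free RNA from glia can also give UMIs. Without thinning the shares were 91.2% of Muller nuclei, 99.3% of astrocytes, 7.95% of HC and 10.1% of microglia, at median depths of 4374 UMIs in Muller nuclei, 10036.5 UMIs in HC and 2087.5 UMIs in microglia.

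Glul, the enzyme that makes glutamine, was the only one of the 8 genes with its highest mean in Muller glia. Its level was 959 ± 204 CPM in Muller glia (673 to 1283 CPM), 481 ± 55.5 CPM in astrocytes (384 to 532 CPM) and 207 ± 50.8 CPM in rods (141 to 281 CPM), and these 3 ranges did not overlap. The rod range overlapped those of endothelial cells (184 CPM), microglia (162 CPM) and pericytes (147 CPM). Cones followed at 101 CPM, the 4 BC types lay between 62.4 and 79.5 CPM, and AC, HC and RGC were lowest at 55.8, 36.8 and 31.1 CPM. The same Muller nuclei held 56.1% of all Glul UMIs. Of thinned nuclei, 55% of Muller glia had a Glul UMI, as did 17.1% of rods and 3.45% of RGC.

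**Figure D1:**
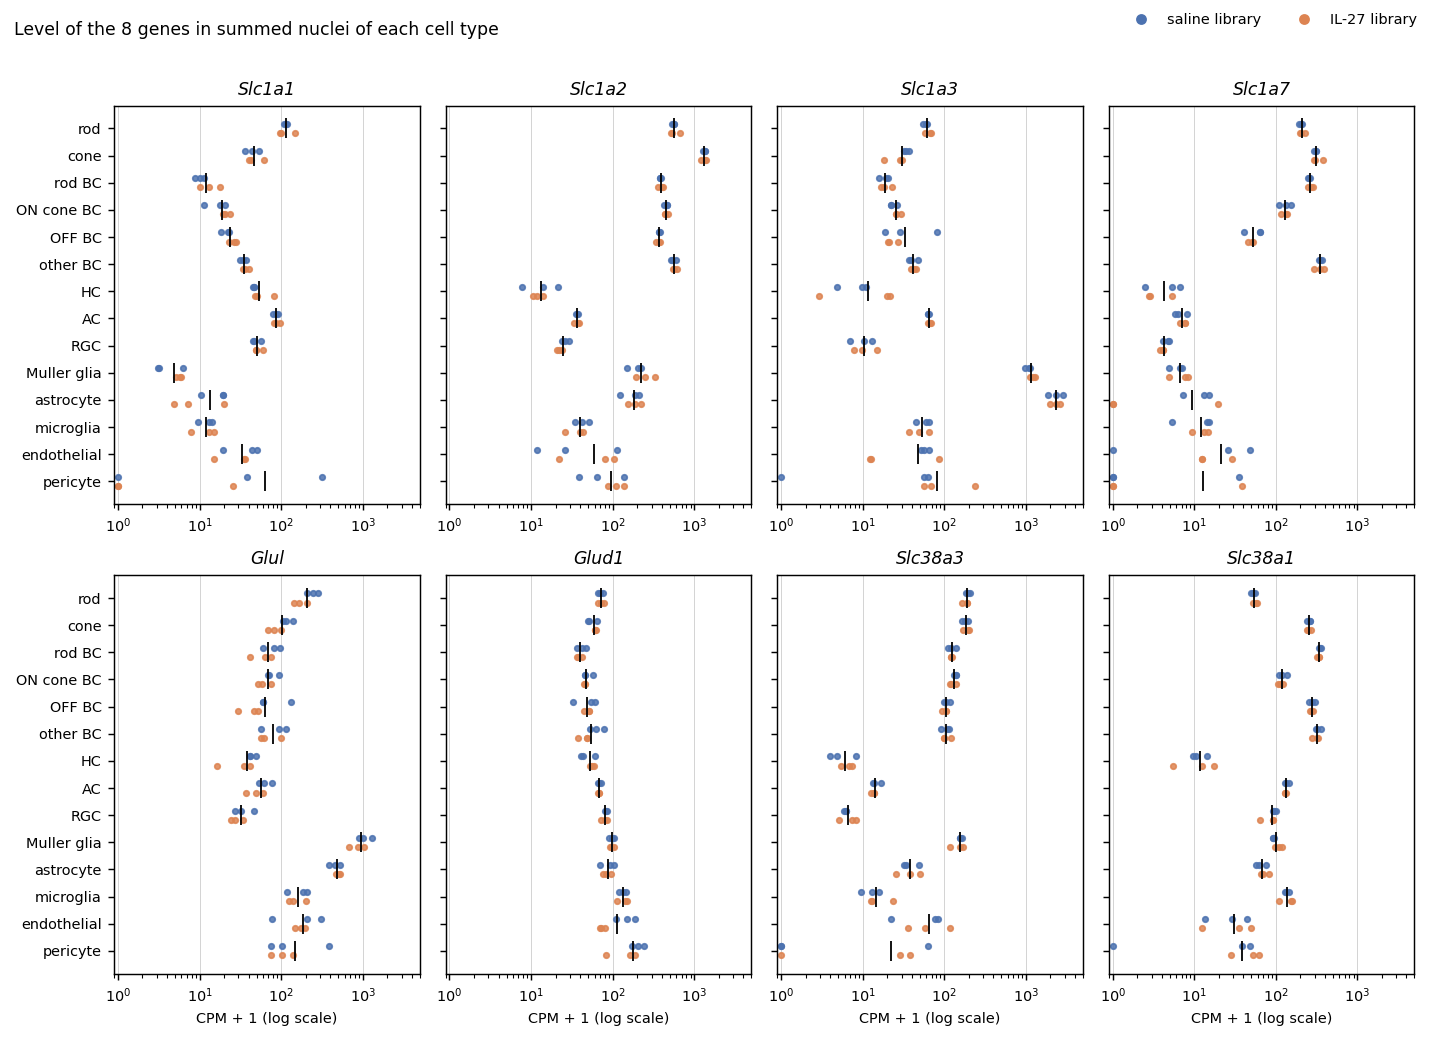
Level of each of the 8 genes by cell type, as CPM + 1 of the summed UMIs on a log axis, with 1 point per library (blue saline, orange IL-27) and a black tick at the mean of the 6 libraries. Slc1a3 and Glul stand highest in astrocytes and Muller glia, Slc1a2 in cones, and Slc1a7 in photoreceptors and bipolar cells.

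Slc1a2 stood higher in photoreceptors and bipolar cells than in all other types of these retinas. It was highest in cones at 1326 ± 67.5 CPM (1209 to 1392 CPM), and no library of any other type reached that range. Rods at 563 ± 57.4 CPM and the other BC at 563 ± 34.9 CPM overlapped each other, followed by ON cone BC at 447 ± 21 CPM, rod BC at 389 CPM and OFF BC at 369 CPM, the last 2 overlapping. Muller glia were lower, at 223 ± 59.6 CPM (149 to 325 CPM), a range that overlapped astrocytes at 180 ± 36.9 CPM. AC (35.7 CPM), RGC (23.3 CPM) and HC (12.3 CPM) were lowest. Cones were 6.39% of nuclei and held 21.9% of Slc1a2 UMIs, rods held 22.7% and Muller glia without the saline-enriched cluster 9.40%. Thinned to equal depth, 70.0% of cones, 40.5% of rods, 17.1% of Muller glia and 1.05% of HC had a Slc1a2 UMI; 3799 of 14349 rod nuclei were too shallow to be thinned.

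Slc1a7, the carrier with a chloride conductance, was highest in photoreceptors and bipolar cells. Means were 348 ± 30.0 CPM in other BC, 313 ± 31.5 CPM in cones, 261 CPM in rod BC, 206 CPM in rods, 130 ± 15.9 CPM in ON cone BC and 51.7 ± 9.32 CPM in OFF BC. The ranges of other BC and cones overlapped, and each later step down to OFF BC was free of overlap. Other BC are led by Grik1, a gene of the OFF BC marker list, but did not reach the 3 markers needed for that name. The low OFF BC level thus holds only for the clusters so named. AC, Muller glia, RGC and HC lay between 3.28 and 6.07 CPM. Bipolar cells were not uniform: within ON cone BC, a cluster of 1001 nuclei led by Gabrr3, Adarb2 and Cngb3 carried Slc1a7 at 448 ± 32.4 CPM (421 to 511 CPM), while the clusters led by Igfn1, by Skor2, and by Hs3st4 and Sox6 stood at 27.6, 18.8 and 3.36 CPM. Within OFF BC, the cluster led by Erbb4 had 94.2 ± 18.3 CPM and those led by Neto1 and Hs3st2 had 9.54 and 6.59 CPM.

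Slc1a1, the neuronal carrier EAAT3, had its highest mean in rods at 114 ± 18.3 CPM (95.4 to 146 CPM), followed by AC at 85.9 ± 6.57 CPM (77.5 to 95.4 CPM). Before rounding, the lowest rod library was just above the highest AC library. HC (52.3 CPM), RGC (50.1 CPM) and cones (45.3 CPM) came next, and pericytes, at 62.4 ± 123 CPM, rested on 24 UMIs with 312 CPM in Saline 6 and 0 to 37.4 CPM in the others. Muller glia had the lowest level of all types, 3.89 CPM from 88 UMIs. AC made up 23.8% of nuclei and held 53.8% of Slc1a1 UMIs, with a range from 42.1 CPM in the cluster led by Tll1 to 219 ± 37.6 CPM in the one led by Pantr1 and Pou3f3.

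AC clusters also differed in the glial carrier Slc1a3. The cluster of 794 nuclei led in part by Slc17a8, which encodes the vesicular glutamate carrier VGLUT3, had 279 ± 42.2 CPM of Slc1a3. Clusters led by Spink13 and Esr1 (184 ± 29.7 CPM), Nxph2 and Trhr (167 ± 36.7 CPM), and Ebf3 and Dnah11 (141 ± 19.2 CPM) followed, and the other AC clusters lay between 10.6 and 28.4 CPM, the cholinergic one marked by Chat at 11 CPM. These 4 clusters stand apart from the rest by library ranges that do not overlap, at 106 CPM or more in every library.

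**Figure D2:**
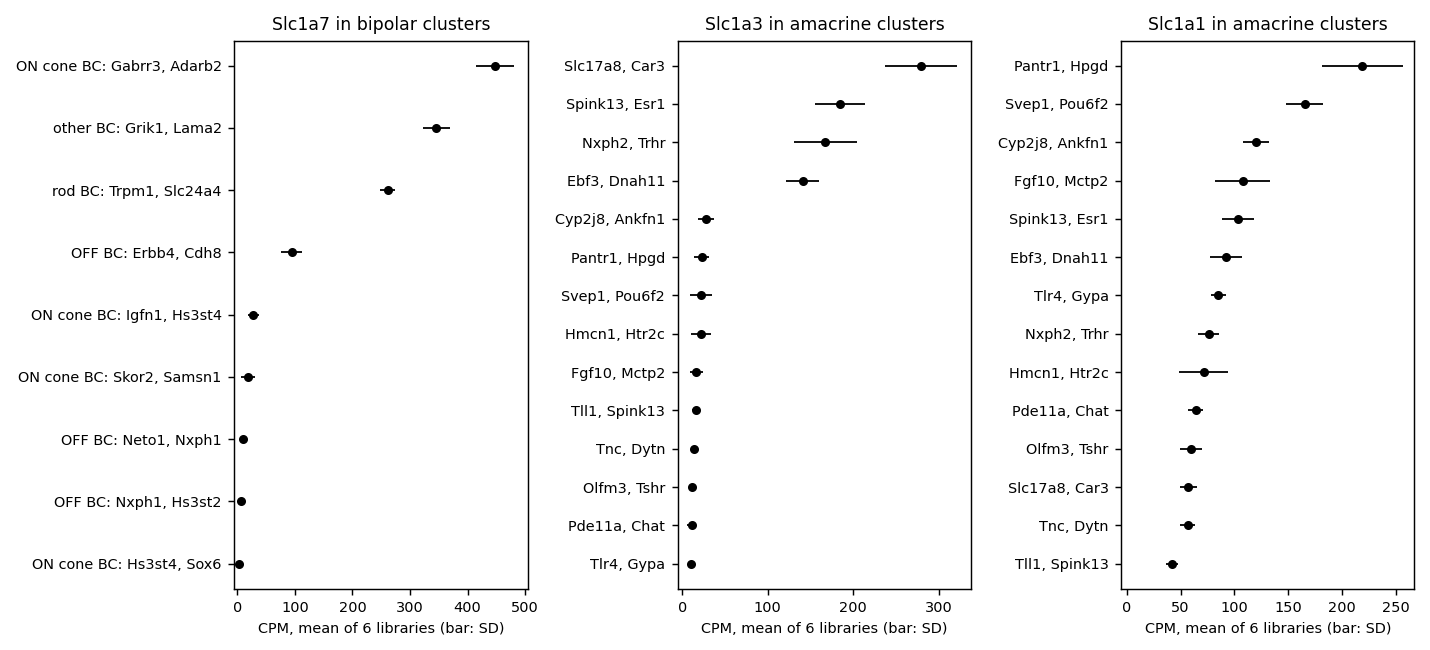
Levels of Slc1a7 in the bipolar clusters and of Slc1a3 and Slc1a1 in the amacrine clusters, in CPM of the summed UMIs, with each cluster named by 2 of its leading genes; points are means of 6 libraries and bars are SD. One ON cone BC cluster carries Slc1a7 at 448 CPM, and 4 amacrine clusters carry Slc1a3 at 141 CPM or more, above the others.

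The glutamine carriers were spread over glia and neurons. Slc38a3 was highest in rods (187 ± 12.4 CPM) and cones (183 ± 15 CPM), with Muller glia next (153 ± 18.3 CPM), then ON cone BC (131 CPM), rod BC (122 CPM), other BC (105 CPM) and OFF BC (103 CPM), each overlapping the next in this order. It was low in astrocytes (37.4 CPM), AC (13.1 CPM), RGC (5.57 CPM) and HC (5.07 CPM). Muller glia without the saline-enriched cluster held 21% of its UMIs. Slc38a1 was highest in rod BC (341 ± 13.2 CPM), followed by other BC (318 CPM), OFF BC (274 CPM) and cones (254 ± 13.3 CPM), all above the range of any further type. Microglia (137 CPM), AC (133 CPM), ON cone BC (117 CPM) and Muller glia (100.3 CPM) formed the middle, and rods (53.5 CPM) and HC (10.6 CPM) the low end.

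Glud1 had the narrowest spread of means over the 14 types. Pericytes had 175 ± 53.7 CPM, microglia 134 CPM, endothelial cells 111 CPM, Muller glia 95.9 ± 5.03 CPM, astrocytes 85.5 CPM and RGC 80.6 CPM, each overlapping the next. Rods (70.5 CPM), AC (66.8 CPM) and cones (57.5 CPM) were lower, and rod BC lowest at 39.3 CPM. One UMI was worth 12.4 to 34.1 CPM in a pericyte sum and 0.195 to 0.312 CPM in a Muller sum, so the pericyte and endothelial levels are coarse.

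The genes with the most similar pattern were found from mean log2(CPM + 1) over the 14 types, among 12806 genes, as a description. For Glul these were Clu (Pearson r = 0.97) and Pdpn (0.97), and for Slc1a3 F3 (0.98) and Lhx2 (0.96). Slc1a2 was most like Atp1b2 (0.96), a subunit of the sodium pump, and Slc38a3 (0.93), and Slc38a3 in turn most like Slc1a2 (0.93) and Rnf122 (0.92). Slc1a7 was most like Lrit2 (0.97) and Lrit1 (0.96), Slc1a1 like Plxna2 (0.91) and Usp31 (0.88), Glud1 like Mtap (0.97) and Esyt1 (0.95), and Slc38a1 like Nol4l (0.87) and Syt9 (0.83). The points share libraries and summed depth, and many genes marking the same type reach such values.

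Muller nuclei formed 5 clusters. There were 1894 nuclei in the one led by Gpnmb, 1683 in the Adamts17 cluster, 1016 in the Tbx5 cluster, 665 in a saline-enriched cluster with Mecom, Slc6a13, Fbln1 and Frmpd4, and 165 in a cluster with interferon response genes. The saline-enriched cluster held 20.1%, 21.9% and 11.3% of Muller nuclei in Saline 1, 2 and 6 and 1.61%, 0.838% and 12.7% in IL-27 4, 5 and 10, so IL-27 10 had a larger share than Saline 6. Its summed level of the 8 Muller markers was 1762, 1613 and 1893 CPM in the saline libraries, against 5147, 5091 and 5325 CPM in the other Muller nuclei of the same libraries.

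In that saline-enriched cluster the uptake carriers Slc1a3 and Slc1a2 were far below the other Muller nuclei, and glutamine synthetase was less so. Within the saline libraries, Slc1a3 stood at 222.6, 256.6 and 264.0 CPM, which was 20.6% ± 0.863 (SD, n = 3) of the other Muller nuclei of the same library. Slc1a2 was at 9.19% ± 2.79 and Slc38a3 at 37.1% ± 9.10 of theirs. The other Slc1 carriers were not lower on average. Slc1a7 stood at 204% ± 24.7 and Slc1a1 at 164% ± 143, on 25 and 9 UMIs over all libraries. Glud1 (53.3% ± 11.6), Slc38a1 (55.6% ± 6.94) and Glul (65.8% ± 5.76) stood nearer the level of the other Muller nuclei. The Muller markers were also lower in this cluster, as given above. Whether its nuclei are Muller glia or another cell type was not tested, so these levels do not show a loss within Muller glia. The cluster had 13 and 7 nuclei in IL-27 4 and 5, so treatments were not compared within it.

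**Figure D3:**
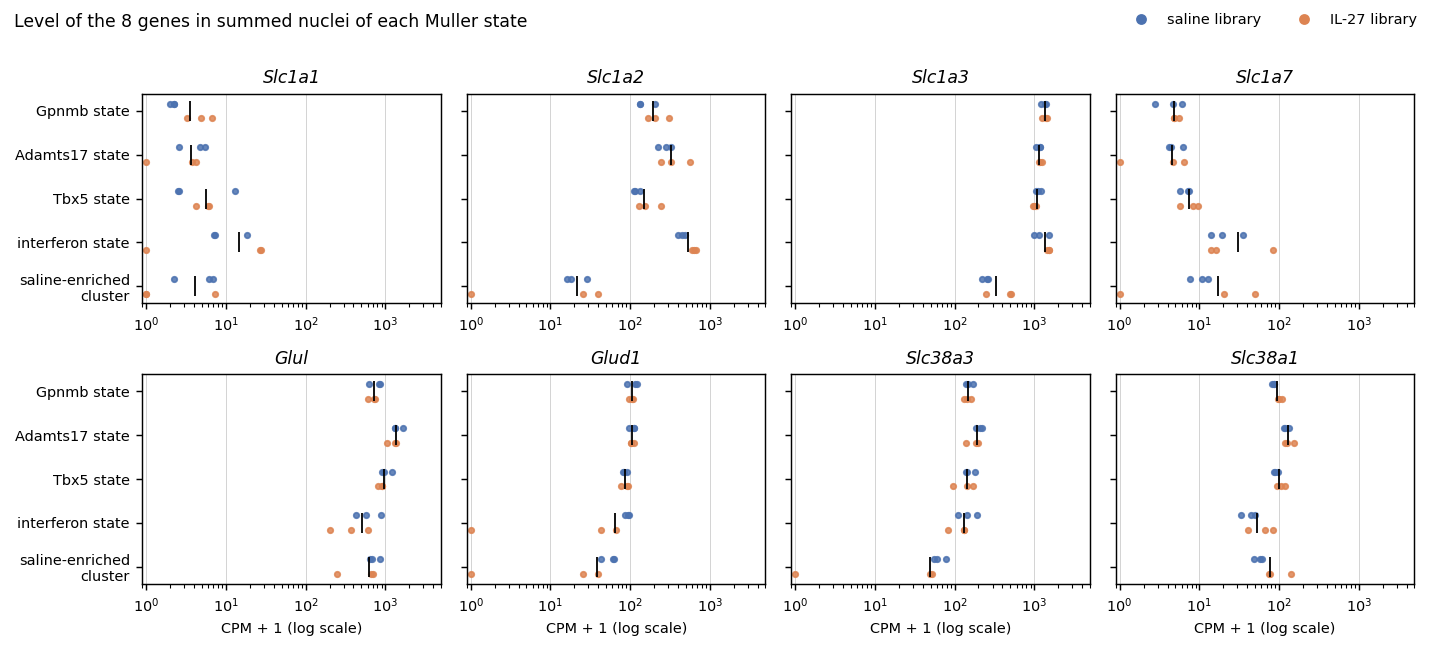
Levels of the 8 genes in the 5 Muller clusters, labelled as states, as CPM + 1 of the summed UMIs on a log axis, with 1 point per library (blue saline, orange IL-27) and a black tick at the mean. The saline-enriched cluster sits lowest for Slc1a3 and Slc1a2, and the interferon cluster highest for Slc1a2.

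The 3 large clusters differed in the same genes. The Adamts17 cluster had the highest Glul (1346 ± 190 CPM, SD, n = 6), against 953 ± 132 CPM in the Tbx5 cluster and 731 ± 105 CPM in the Gpnmb cluster, and also the highest Slc1a2, at 326 CPM against 148 and 191 CPM. Slc1a3 was highest in the Gpnmb cluster at 1349 ± 93.9 CPM, followed by the Adamts17 cluster at 1162 ± 61.1 CPM and the Tbx5 cluster at 1070 ± 91.4 CPM. Slc38a3 (189 against 148 and 145 CPM) and Slc38a1 (127 against 92.7 and 97.6 CPM) were likewise highest in the Adamts17 cluster. The interferon cluster had Slc1a2 at 487, 444 and 404 CPM in the saline libraries, 208% ± 40.3 of the other Muller nuclei, and at 632, 590 and 667 CPM in the IL-27 libraries. In its saline libraries Slc1a7 stood at 464% ± 175 and Slc1a1 at 327% ± 74.1, on 18 and 15 UMIs over all libraries. Glul was at 55.8% ± 10.8 and Slc38a1 at 41.8% ± 8.74, and Slc1a3, Glud1 and Slc38a3 lay between 84.7% and 102%. The interferon cluster also carried the rod marker list at 10.2% of the level in rods (6.46% to 15.5%), against 3.90% to 5.37% in the 3 large clusters. Rods are themselves rich in Slc1a2. The part of rod RNA in these levels was not tested, and the cluster had 8 nuclei in IL-27 4.

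To ask whether IL-27 altered these genes, the 3 saline and 3 IL-27 sums of each type were compared with the edgeR quasi-likelihood test, adjusted by Benjamini-Hochberg over all genes tested in the type. In Muller glia, none of the 8 genes passed an adjusted p of 0.05, where 4 of 13963 genes did (0.0286%). Across the 14 types, 88 of 112 gene and type pairs passed the filter on low counts, and 0 of the 88 were called, with adjusted p from 0.544 to 1.0. DESeq2 also called 0. At an unadjusted p under 0.05 stood 9 of the 88, with 5680 of 135338 tests over all genes at that mark (4.2%), and 6 of those 135338 were called (0.00443%). Of the 88 log2 fold changes (log2FC, IL-27 over saline), 80 were within 0.5 of 0.

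In Muller glia, Slc1a3 was at 976, 1081 and 1131 CPM in Saline 1, 2 and 6 and at 1127, 1303 and 1229 CPM in IL-27 4, 5 and 10. The lowest IL-27 library fell just below the highest saline library. The log2FC was 0.22 (SE 0.11, 95% interval -0.03 to 0.47, adjusted p = 0.604, edgeR). Without the saline-enriched cluster, which is poor in Slc1a3 and larger in 2 of the 3 saline libraries, it was 0.07. In that fit 5 of 13533 genes were called (0.0369%), again none of the 8. In the single large clusters the log2FC of Slc1a3 was 0.04 (Gpnmb), 0.08 (Adamts17) and -0.13 (Tbx5).

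Slc1a2 in Muller glia was at 204, 149 and 219 CPM with saline and 246, 194 and 325 CPM with IL-27, groups that overlapped through IL-27 5. Its log2FC was 0.44 (SE 0.19, interval 0.00 to 0.87, unadjusted p = 0.0481, adjusted p = 0.544, edgeR), 0.29 without the saline-enriched cluster, 0.28 without Saline 2 and 0.25 without IL-27 10. IL-27 10 was the highest library in each large cluster: 311 CPM in the Gpnmb cluster, 560 CPM in the Adamts17 cluster and 246 CPM in the Tbx5 cluster, against 132 to 202, 226 to 324 and 111 to 134 CPM over the saline libraries. The summed rod markers in Muller nuclei were also highest in that library, at 680 CPM against 263 to 514 CPM in the other libraries, and their part in Slc1a2 was not tested. In the Gpnmb cluster the log2FC of Slc1a2 was 0.53 (unadjusted p = 0.0147), in the Adamts17 cluster 0.36 (0.0829) and in the Tbx5 cluster 0.57 (0.0131), with adjusted p of 0.998 in the first and 0.734 in the last by edgeR with Benjamini-Hochberg. Without IL-27 10 these fell to 0.24 in the Gpnmb and 0.25 in the Tbx5 cluster. In these clusters 2 of 11399 (0.0175%), 15 of 10900 (0.138%) and 4 of 8123 genes (0.0492%) were called, none of them among the 8.

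Slc38a1 was the only one of the 8 whose libraries did not overlap between treatments in the sums over all Muller nuclei. It was at 92.6, 90.3 and 95.1 CPM with saline and 107, 119 and 97.6 CPM with IL-27, a log2FC of 0.24 (SE 0.11, interval -0.01 to 0.49, unadjusted p = 0.0541, adjusted p = 0.558, edgeR). Without the saline-enriched cluster the groups overlapped and the log2FC was 0.15. Without IL-27 5 it was 0.155. In the Gpnmb cluster the log2FC was 0.29 (unadjusted p = 0.0412, adjusted p = 0.998, edgeR) and the groups again did not overlap. The share of all genes whose groups did not overlap is not given here. Lack of overlap, here and for the genes below, therefore does not set a gene apart.

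Glul in Muller glia was at 996, 889 and 1283 CPM with saline and 1042, 869 and 673 CPM with IL-27. Saline 6 was the highest and IL-27 10 the lowest library, and the others overlapped. The log2FC was -0.27 (SE 0.19, interval -0.70 to 0.16, adjusted p = 0.762, edgeR), -0.10 without Saline 6, -0.10 without IL-27 10, -0.44 without IL-27 4 and -0.35 without the saline-enriched cluster. The Adamts17 cluster, the one with most Glul, made up 33.9%, 28.7% and 46.0% of Muller nuclei in Saline 1, 2 and 6 and 41.5%, 24.3% and 8.11% in IL-27 4, 5 and 10. The libraries with the highest and lowest Glul had the largest and smallest share of that cluster. The part of these shares in the Glul difference was not tested. Within single clusters the log2FC of Glul was -0.17 (Gpnmb), -0.18 (Adamts17) and -0.19 (Tbx5).

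Slc38a3 (log2FC -0.07, interval -0.40 to 0.25) and Glud1 (0.02, interval -0.21 to 0.26) were near 0 in Muller glia, with intervals that leave room for changes of that size in either direction. Slc1a1 (0.61, SE 0.39, interval -0.26 to 1.5) and Slc1a7 (0.22, SE 0.32) were at 2.14 to 5.19 and 3.89 to 7.48 CPM there, too low for a firm value.

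**Figure D4:**
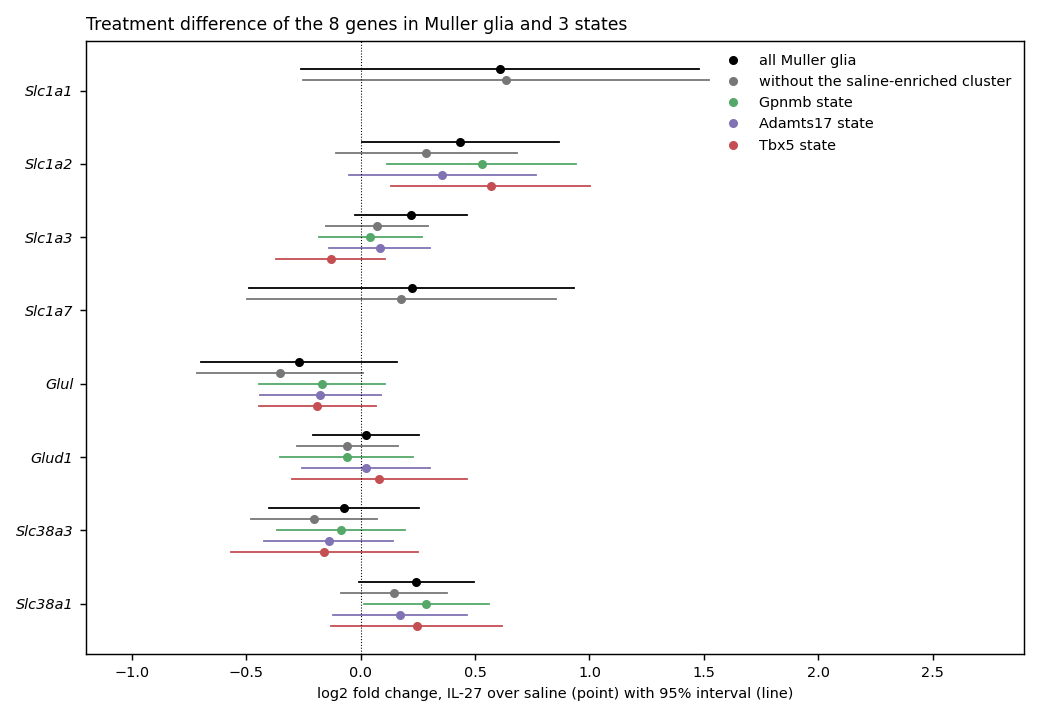
Log2 fold change (IL-27 over saline, points) of the 8 genes in Muller glia, with and without the saline-enriched cluster and, for the 6 genes that passed the filter there, in the 3 large clusters; lines are 95% intervals from edgeR. In all Muller nuclei the Slc1a2 interval starts at 0.00 and the other 7 cross 0, and none passed the adjusted test.

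Outside Muller glia, Glul was lower with IL-27 in most types. The 13 types in which it was tested, Muller glia included, come from the same 6 libraries, so their signs are not separate observations. The log2FC of Glul was below 0 in 12 of them, 6 of these with an unadjusted p under 0.05 (edgeR), and above 0 in astrocytes (0.11). In rods it was at 242, 209 and 281 CPM with saline and 204, 141 and 163 CPM with IL-27, with no overlap, a log2FC of -0.51 (SE 0.14, interval -0.81 to -0.22, unadjusted p = 0.00205, adjusted p = 1.0, edgeR). In rods 1 of 13255 genes was called (0.00754%). Cones had 114, 104 and 140 CPM against 99.7, 67.3 and 81.5 CPM, again with no overlap, a log2FC of -0.51 (SE 0.16, unadjusted p = 0.00446, adjusted p = 0.999, edgeR). Among cone genes 0.0% were called.

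In OFF BC, 1 library carried much of the difference. Glul was at 58.6, 59.2 and 131 CPM with saline and 45.5, 28.7 and 51.5 CPM with IL-27, a log2FC of -1.0 (SE 0.29, unadjusted p = 0.00469, adjusted p = 1.0, edgeR) that was -0.48 without Saline 6 and -0.30 without the removal of doublets. Slc1a3 in the same sums was at 18.0, 27.9 and 80.6 CPM against 25.9, 20.0 and 19.4 CPM, a log2FC of -0.97 (SE 0.43, unadjusted p = 0.0409, adjusted p = 1.0, edgeR) that was -0.03 without Saline 6. The summed Muller markers were highest in the same library: 176, 198 and 482 CPM with saline, 180, 158 and 182 CPM with IL-27. On average 8 of 8 markers were lower with IL-27 and none was at 0, but Saline 6 enters each saline mean. The share of all genes lower on average with IL-27 is not given here. The part of Muller RNA in these Glul and Slc1a3 values was not tested.

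Smaller differences of Glul were seen in AC (log2FC -0.40, unadjusted p = 0.0375), rod BC (-0.41, unadjusted p = 0.0492) and ON cone BC (-0.33, unadjusted p = 0.0493), all with adjusted p above 0.99 by edgeR with Benjamini-Hochberg. The groups overlapped in each of these 3 types. A single library moved each value by over 1.5 times: without Saline 6 the log2FC was -0.24 in AC, -0.24 in rod BC and -0.16 in ON cone BC, without IL-27 5 it was -0.24, -0.19 and -0.21, and in rod BC and ON cone BC it was -0.64 and -0.51 without IL-27 4. Of AC genes 1 of 16852 was called (0.00593%). The 9 unadjusted differences, which also include Slc1a2 in Muller glia and Glud1 in other BC, come from the same 6 libraries and are not 9 separate observations.

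**Figure D5:**
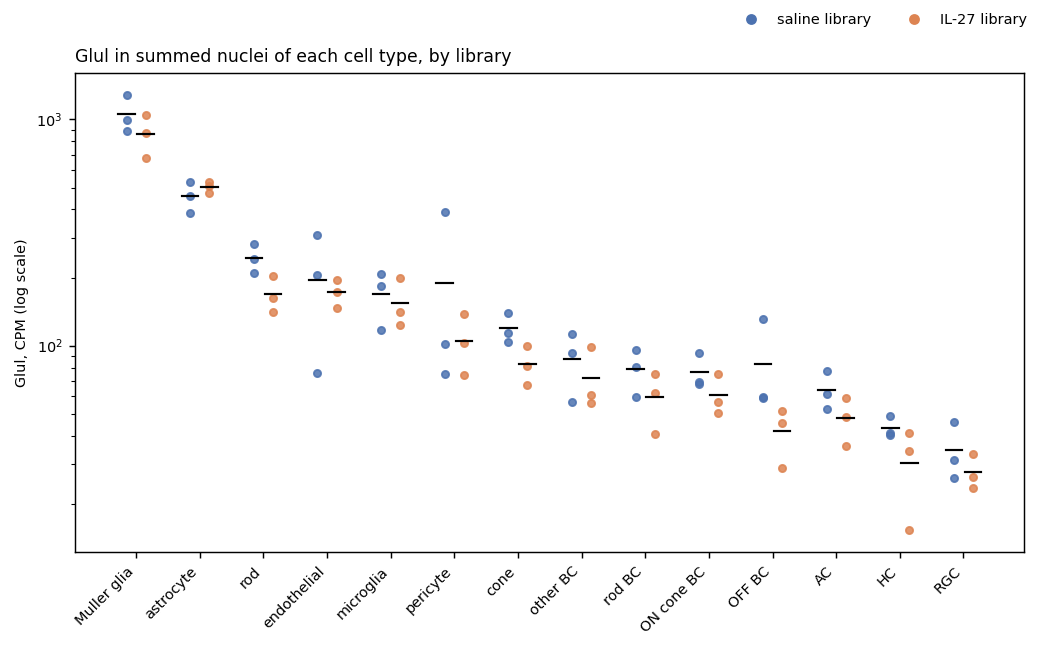
Glul level in each of the 14 cell types, in CPM of the summed UMIs on a log axis; points are libraries (blue saline, orange IL-27) and black lines the mean of each group. In rods, cones and OFF BC every IL-27 library lies below every saline library, while in Muller glia the groups overlap.

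Glul in rods and AC was set against the Muller level of the same library. Among the saline libraries, Glul was highest in Saline 6 and lowest in Saline 2 in rods, AC and Muller glia. Among the IL-27 libraries, it was lowest in IL-27 5 in rods and AC and in IL-27 10 in Muller glia. Rods held 24.3%, 23.5% and 21.9% of the Muller level in Saline 1, 2 and 6 and 19.6%, 16.3% and 24.2% in IL-27 4, 5 and 10. In AC the share was 6.02% ± 0.13 (SD, n = 3) with saline and 5.68% ± 1.52 with IL-27, with overlapping groups. The summed Muller markers in rods were at 779, 724 and 750 CPM with saline and 740, 653 and 692 CPM with IL-27, with 7 of 8 markers lower on average, and in cones at 426, 389 and 422 CPM against 411, 325 and 385 CPM, with 6 of 8 lower. None of the markers was at 0 in these sums. The share of all genes lower on average with IL-27 is not given here, so these counts do not set the markers apart. Over the 6 libraries, Glul in rods was 21.6% of the Muller level and Slc1a3 5.35%, whereas in RGC they were 3.24% and 0.838% and in AC 5.85% and 5.64%. The part of Muller RNA in the neuronal Glul values was not tested.

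The last of the 9 was Glud1 in other BC, at 78.1, 61.4 and 52.1 CPM with saline and 47.2, 36.8 and 48.1 CPM with IL-27 (log2FC -0.52, unadjusted p = 0.0256, adjusted p = 0.994, edgeR). Its groups did not overlap, and the log2FC was -0.34 without Saline 1. Across the types other than Muller glia, the log2FC ran from -0.30 to 0.09 for Slc1a2, from -0.21 to 0.14 for Slc1a7, from -0.01 to 0.53 for Slc1a1, from -0.12 to 0.18 for Slc38a3 and from -0.17 to 0.11 for Slc38a1. For Slc1a3 it ran from -0.97 in OFF BC to 0.24. In cones Slc1a3 was at 31.3, 36.1 and 33.5 CPM with saline and 27.7, 29.6 and 17.4 CPM with IL-27, with no overlap (log2FC -0.41, unadjusted p = 0.0818, adjusted p = 0.999, edgeR).

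A list of 45 further genes of glutamate handling was followed in the same fits: other membrane, vesicular and mitochondrial carriers, enzymes of glutamate and glutamine, proteins that bind the carriers, and glutathione synthesis. Of 349 tests over the types, 0 were called by edgeR or DESeq2, the lowest adjusted p was 0.221, and 20 had an unadjusted p under 0.05, a mark that 4.2% of tests over all genes reached. In Muller glia 37 of the 45 were tested, 0 were called, and the unadjusted p was under 0.05 for 3 that were higher and 2 that were lower with IL-27. Of all 13963 genes tested there, 566 were higher and 703 lower at that mark. The median log2FC of the 37 was 0.00, against 0.22 for the 8 genes above and 0.00 over all genes. For the 8 it was 0.11 without the saline-enriched cluster, and for the 6 tested in single clusters -0.01 (Gpnmb), 0.05 (Adamts17) and -0.02 (Tbx5).

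Slc7a5, the light chain of a carrier that exchanges glutamine for large amino acids, was at 20.4, 24.6 and 21.9 CPM with saline and 28.7, 31.9 and 39.3 CPM with IL-27 in Muller glia (log2FC 0.60, unadjusted p = 0.00248, adjusted p = 0.221, edgeR), with no overlap. Ezr, the membrane linker ezrin, was at 38.7, 38.2 and 27.3 CPM against 18.2, 24.5 and 24.6 CPM (log2FC -0.62, unadjusted p = 0.00603, adjusted p = 0.298, edgeR), also with no overlap. Gss, glutathione synthetase, had a log2FC of 0.39 (unadjusted p = 0.0449, edgeR). Slc7a11, which exports glutamate in exchange for cystine, had log2FC of opposite sign with and without the saline-enriched cluster. Over all Muller nuclei it was at 129, 153 and 103 CPM with saline and 38.1, 23.5 and 107 CPM with IL-27 (log2FC -1.2, unadjusted p = 0.0174, edgeR). Without the cluster it was at 21.9, 28.4 and 18.2 CPM against 36, 21 and 42 CPM (log2FC 0.51, unadjusted p = 0.0493, edgeR). Neither difference passed the adjusted test after the filter on low counts, and without that filter the one over all Muller nuclei did (log2FC -1.21, adjusted p = 0.00872, edgeR). Without the filter, 58 higher and 244 lower of 23977 genes were called there. Without IL-27 10, the IL-27 library with a large saline-enriched cluster, the log2FC over all Muller nuclei was -2.02 (adjusted p = 0.000612, edgeR). That fit called 113 higher and 320 lower of 14332 genes. The part of the saline-enriched cluster in these Slc7a11 values was not tested.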

How the data were processed

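The authors counted single-nucleus 3′ libraries with Cell Ranger (9.0.1 per the labels, 8.0.1 in the matrix headers) and deposited whole UMI counts per gene and barcode, without normalization. The genome build is not given in the sources used here. They went on with Seurat 5.2.1, Harmony, an atlas annotation and pseudobulk tests. Gene IDs were placed with GENCODE M21, which held 32158 of 32285.

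Nuclei needed over 500 UMIs, 200 or more genes and a mitochondrial share below 5%, and Scrublet (scanpy 1.11.5, expected rate 8%) removed 622 to 724 doublets per library. Louvain clustering (2000 variable genes, 25 components, 20 neighbours, resolution 0.25, no integration) used none of the 8 genes or the pathway list. Clusters were named from marker lists (at least 3 markers), and 149 mixed nuclei were set aside. Muller nuclei were clustered again (4000 genes, 10 components). Nuclei whose log2 count lay more than 2 median absolute deviations off the median were left out of the sums per type and per Muller cluster. They were also left out of the shares of nuclei with a UMI. Shares of all UMIs, levels of single AC and BC clusters, and cluster shares of Muller nuclei used all retained nuclei. Types with at least 10 nuclei in every library were filtered (filterByExpr, 10 counts), normalized by TMM and fitted in edgeR 4.0.16 (quasi-likelihood, R 4.3.3), Benjamini-Hochberg over all genes of a type, threshold 0.05. On simulated Muller counts with 200 changed genes among 13764, edgeR recovered 192 with 7 false calls. The size and spread given to those 200 genes are not stated here. Recovery at the log2FC and library spread of the 8 genes was not tested.

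Genes named one by one are the 8, those of them with an unadjusted p under 0.05 per type, up to 5 pathway genes with the smallest p in Muller glia (1 of them is not reported here), and the 2 genes most similar in pattern, among genes with 20 CPM in at least 1 type. The members and lists were chosen with earlier results of these data known. Alternatives were DESeq2 1.42.0, its size factors in edgeR, no filter or one at 50 counts, no doublet removal, sums over all nuclei, a resolution of 0.5, the 8 genes kept for clustering, thinning to 1000 UMIs, Xist as a covariate, Muller nuclei without the saline-enriched cluster, and each library left out.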

Additional observations from a re-analysis of the deposited data

How the results depend on the processing

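Without the filter on low counts, 3 of the 112 pairs of the 8 genes and types were called: Glul in rods (log2FC -0.52, adjusted p = 0.0160, edgeR), Glul in OFF BC (-1.01, adjusted p = 7.91e-09) and Slc1a3 in OFF BC (-0.98, adjusted p = 5.18e-05). That setting called 18 higher and 9 lower of 24000 genes in rods, and 21 and 130 of 22507 in OFF BC. Under the same setting 3 tests of the pathway list were called (Slc38a2 and Slc7a11 in pericytes, Slc7a11 in Muller glia). Over all genes it called 16 higher and 21 lower of 15130 in pericytes, and 58 and 244 of 23977 in Muller glia. Leaving out 1 library gave 0 calls for the 8 genes, and 0 to 1 for the pathway list, the 1 being Slc7a11 in Muller glia without IL-27 10 (log2FC -2.02). In Muller glia these directions turned: Slc1a1 (-0.19) and Slc1a7 (-0.045) with no doublet removal, Glud1 without Saline 2 (-0.029), without IL-27 4 (-0.028) or without the saline-enriched cluster (-0.059), and Slc38a3 without IL-27 10 (0.084). The cause was not tested. Leaving out 1 library at a time, Glud1 ran from -0.029 to 0.076 and Slc38a3 from -0.199 to 0.084. Counts of Muller genes called moved from 3 higher and 1 lower to 31 and 70 with DESeq2, 58 and 244 with no filter, 113 and 320 without IL-27 10, and 0 with Xist as a covariate, so the background share depends on these choices. Glul in Muller glia ranged from -0.44 to -0.10 and Slc1a2 there from 0.25 to 0.59 over 15 alternatives each, with no call. Glul in OFF BC ranged from -1.19 to -0.30, the latter with no doublet removal. Glul remained the 1 gene highest in Muller glia in every setting run. Without doublet removal no pericyte value was available. Shares of nuclei carry no error from the spread between libraries, while the edgeR intervals include it. No paired analysis was possible because the groups compared share no replicate number.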
